A study of Homo sapiens with 24 samples.

Results

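The RAS, RAF, MEK and ERK cascade is the kinase relay that vemurafenib, an inhibitor of mutant BRAF, interrupts. RAS proteins on the inner face of the plasma membrane load GTP after receptor signalling and bring RAF kinases there, RAF phosphorylates the dual-specificity kinases MEK1 and MEK2, and these phosphorylate ERK kinases, which enter the nucleus. Tumour cells with an activated BRAF do not need RAS for this, and ERK then induces its own inhibitors, the DUSP phosphatases and the Sprouty proteins. The genes described here are those that encode the relay itself: NRAS, the RAF kinases BRAF and ARAF, the scaffold KSR1, the MEK genes MAP2K1 and MAP2K2, and the ERK1 gene MAPK3. They were taken as a list of 7 symbols, and every probe that carried one of these symbols was used. Of the 7 genes, 5 had a probe and 4 were detected on any array. BRAF and NRAS were not analysed here. The 5 genes had 6 probes among 47231 on the array, 1 each for ARAF, KSR1, MAP2K1 and MAP2K2 and 2 for MAPK3.

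Total RNA was hybridized to 24 Illumina bead arrays in 8 groups of 3. SW1736, a thyroid cancer line, and SKMEL28, a melanoma line, were each left untreated (0 h) or kept in 2 µM vemurafenib for 1, 6 or 48 h. Both lines are labelled BRAFV600E, the substitution V600E in BRAF, so untreated and treated cells alike carry the active kinase, and each tissue is represented by a single line. With untreated arrays at 0 h only, the drug's effect and the effect of time in culture cannot be told apart, and the comparisons within a line share its untreated arrays. The labels number the replicates 1 to 3 without saying whether each was its own culture, so the spread behind every p-value may be technical.

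All levels are log2 of the background-corrected, quantile-normalized signal, which sets each probe against the rest of its array. Differences are log2 differences ± SE from a limma model over the 26673 probes detected on at least 3 arrays. Adjusted p-values are limma's, by Benjamini and Hochberg over those probes, and a probe is called at an adjusted p under 0.05. A level belongs to 1 probe, and the levels of different probes were not set against each other. Where groups are said to lie apart or not to overlap, this describes 3 arrays in each and is not a test. The share of all probes that separate in this way is not given. In RNA of whole cultures, fewer cells with a transcript and less transcript per cell cannot be told apart.

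Between 17369 and 19843 probes were detected per array, and the median SD of a probe over 3 replicates was 0.30 in SW1736 and 0.21 in SKMEL28. Of 7 melanocyte genes with a probe, 5 were detected on no SW1736 array, MITF on 11 of 12 and PMEL on 4 of 12, while 6 were detected on all 12 SKMEL28 arrays. The thyroid transcription factor genes PAX8 and FOXE1 were detected on 12 of 12 SW1736 arrays, while TG, NKX2-1 and SLC5A5, which also define thyroid follicular cells, were detected on 0 of 24. CD14, listed as an immune marker, was detected on all 12 SW1736 arrays and on 5 of 12 SKMEL28 arrays. PTPRC was detected on 0 SW1736 and 2 SKMEL28 arrays, and LYZ on 2 SW1736 and 0 SKMEL28 arrays. CD3E, the remaining immune marker with a probe, was detected on 0 arrays of either line.

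MAPK3 was the cascade gene that rose with time in vemurafenib, by 1.81-fold in SW1736 and 1.66-fold in SKMEL28 at 48 h, and its 2 probes rose in both lines. MAP2K1 fell in SKMEL28 at 48 h to 0.71 of its untreated level, a call at the threshold (adjusted p = 0.0498) that was lost under 21 of 39 alternative settings. Its level in SW1736, 0.72 of the untreated one, was not called and rested largely on replicate 3 at 48 h (0.88 without it). The difference between the lines in this change was not called. ARAF and MAP2K2 were not called at any time in either line. ARAF differed between the lines instead, by 2.37-fold in untreated cells and 2.42-fold at 48 h, higher in SW1736. At 1 h 0 of 5 cascade probes were called in either line, where 0.139% of all probes were called in SW1736 and 0.112% in SKMEL28. At 6 h 0 of 5 were called as well, with 5.61% of all probes called in SW1736 and 4.5% in SKMEL28.

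**Figure D1:**
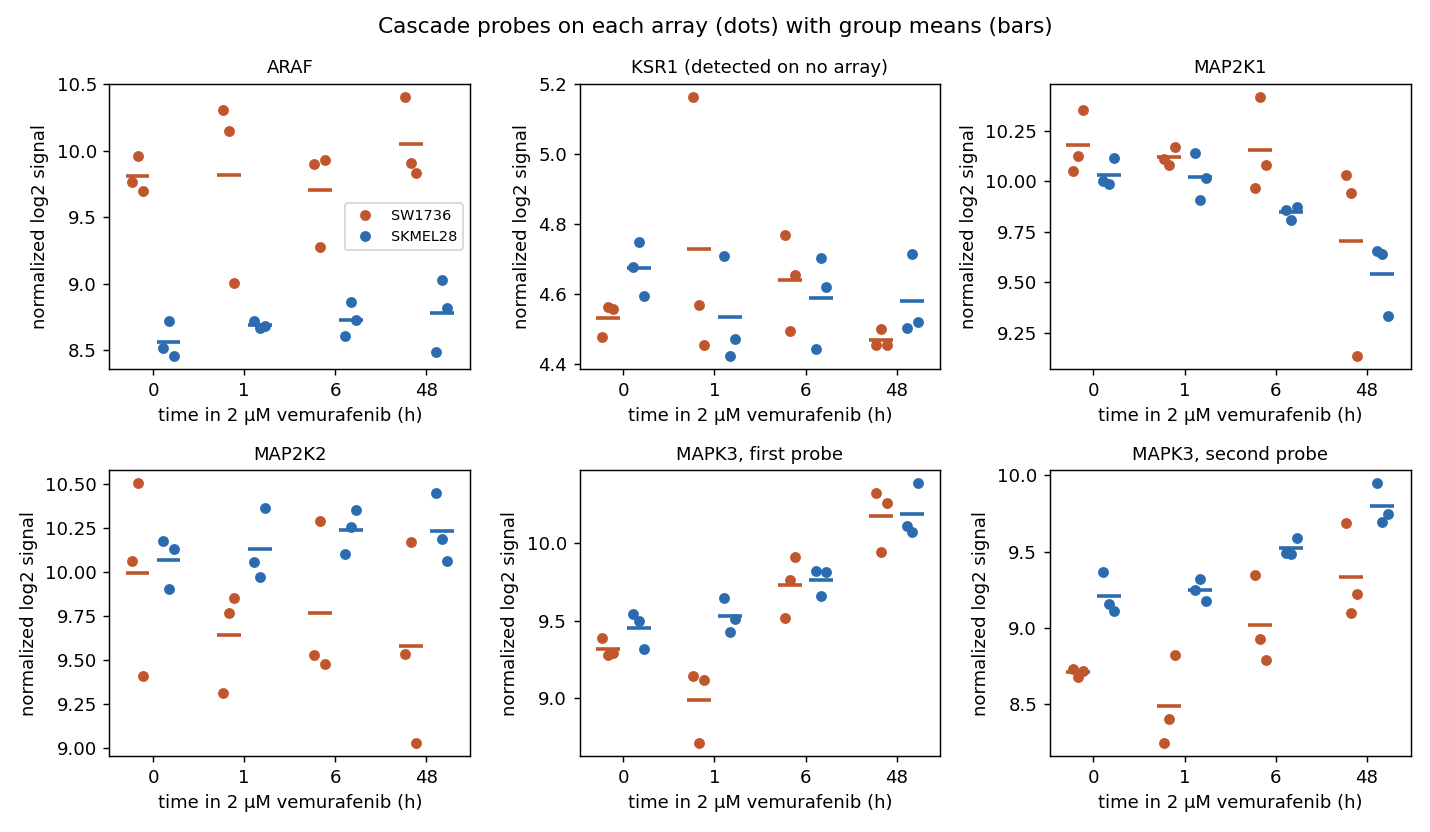
Normalized log2 signal (vertical axis, with its own range in each panel and not starting at 0) of the 6 cascade probes on each of 24 arrays, by hours in 2 µM vemurafenib, for SW1736 (left in each pair) and SKMEL28. Dots are arrays and bars are means of 3. At 48 h the first MAPK3 probe lies between 9.94 and 10.32 in SW1736 and between 10.07 and 10.38 in SKMEL28, above all arrays at 0 h of the same line, and ARAF lies higher in SW1736 at 0 h and at 48 h.

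At the level of RAF, ARAF encodes a RAF isoform with low kinase activity of its own that pairs with other RAF proteins. In SW1736 its log2 level was 9.77, 9.96 and 9.70 at 0 h, 10.31, 10.15 and 9.003 at 1 h, 9.90, 9.28 and 9.93 at 6 h, and 10.41, 9.91 and 9.84 at 48 h. In SKMEL28 it was 8.52, 8.72 and 8.45 at 0 h, 8.72, 8.66 and 8.68 at 1 h, 8.61, 8.86 and 8.73 at 6 h, and 8.48, 9.03 and 8.82 at 48 h. Replicate 3 of SW1736 at 1 h, at 9.003, was the only SW1736 array below the highest SKMEL28 array, at 9.03.

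Untreated cells of the 2 lines did not overlap in ARAF (9.81 ± 0.13 in SW1736 and 8.56 ± 0.14 in SKMEL28, SD, n = 3 each). The difference was 1.25 ± 0.25 (adjusted p = 0.000274, 95% interval 0.72 to 1.77). At 48 h the levels were 10.05 ± 0.31 in SW1736 and 8.78 ± 0.27 in SKMEL28, a difference of 1.27 ± 0.25 (adjusted p = 0.000187, 95% interval 0.75 to 1.80). Differences of this kind were common: 19.3% of all probes were called higher in SW1736 in untreated cells and 21.1% at 48 h. ARAF kept both calls under each of the 37 alternative settings computed for it. Ordered by mean level, the 4 SKMEL28 groups came first and the 4 SW1736 groups after them. Neighbours overlapped within each line, and the only gap without overlap, 0.93, lay between SKMEL28 at 48 h and SW1736 at 6 h. The lines were not compared at 1 h and 6 h.

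No change of ARAF with time was called. At 48 h against 0 h the difference was 0.24 in SW1736, with a 95% interval of -0.28 to 0.76, and 0.21 in SKMEL28, with an interval of -0.31 to 0.73. These intervals leave room for a change of up to 1.70-fold in SW1736 and 1.66-fold in SKMEL28. The ARAF promoter window is shown because this gene set the lines apart; it is given 5′ to 3′ for the + strand of chrX:47560955-47561254 in GRCh38.p14, from 250 bases before to 50 after the start of the RefSeq gene.

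ARAF: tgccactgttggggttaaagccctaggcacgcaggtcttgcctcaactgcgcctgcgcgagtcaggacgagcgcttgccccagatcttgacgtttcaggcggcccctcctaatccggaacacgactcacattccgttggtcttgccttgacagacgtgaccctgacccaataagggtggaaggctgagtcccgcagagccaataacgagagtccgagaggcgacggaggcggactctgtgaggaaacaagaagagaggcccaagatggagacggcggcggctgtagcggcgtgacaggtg

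KSR1 encodes a scaffold that resembles RAF and brings RAF, MEK and ERK together. Its probe was detected on 0 of 24 arrays, with a lowest detection p of 0.101. The log2 signal lay between 4.46 and 5.16 in SW1736 and between 4.42 and 4.75 in SKMEL28, and the 8 group means formed one overlapping range. The probe did not pass the filter, and in the fit without a filter 0 of 14 comparisons of KSR1 were called, with a lowest adjusted p of 0.619.

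MAP2K1 encodes MEK1, the kinase between RAF and ERK. In SW1736 its log2 level was 10.05, 10.13 and 10.35 at 0 h, 10.11, 10.08 and 10.17 at 1 h, 9.97, 10.42 and 10.08 at 6 h, and 10.03, 9.94 and 9.13 at 48 h. SKMEL28 had 10.00, 9.98 and 10.11 at 0 h, 10.14, 9.91 and 10.02 at 1 h, 9.86, 9.81 and 9.87 at 6 h, and 9.65, 9.64 and 9.33 at 48 h. All 3 arrays at 48 h lay below all 3 at 0 h in each line, in SW1736 only narrowly (highest 10.03 against lowest 10.05). Replicate 3 of SW1736 at 48 h, at 9.13, stood below the next lowest of that line, at 9.94.

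At 48 h MAP2K1 averaged 9.54 ± 0.18 in SKMEL28, against 10.03 ± 0.07 at 0 h (SD, n = 3 each), a difference of -0.49 ± 0.19 with an adjusted p of 0.0498. Among all probes, 14.8% were called lower in that comparison. The call was lost without any 1 of 18 of the 24 arrays, namely replicates 1 and 2 of SW1736 at 0 h, all 3 at 1 h, replicate 3 at 6 h, and each of the 12 SKMEL28 arrays. Over the 39 alternative settings the difference lay between -0.66 and -0.39, with adjusted p-values of up to 0.201. With replicate number, numbered separately per line, added as a block the adjusted p was 0.0623, which ends the call. In SW1736 the level was 9.70 ± 0.50 at 48 h, against 10.18 ± 0.16 at 0 h, a difference of -0.47 ± 0.19 with an adjusted p of 0.0651, while 12.8% of all probes were called lower. Without replicate 1 of SW1736 at 48 h the adjusted p was 0.0202, and without replicate 2 it was 0.0373. Without replicate 3, the lowest array, the difference was -0.19 with an adjusted p of 0.460, and with replicate 3 left out of every SW1736 group it was -0.10 with an adjusted p of 0.739. The difference between the lines in this change was 0.02 ± 0.26 (95% interval -0.53 to 0.56, adjusted p = 0.981). The interval of the difference between lines leaves room for unequal changes.

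Ordered by mean level, the lowest MAP2K1 groups were SKMEL28 at 48 h, SW1736 at 48 h and SKMEL28 at 6 h, which overlapped as neighbours. SKMEL28 at 6 h lay below SKMEL28 at 1 h without overlap, with a gap of 0.18 between their means, while SW1736 at 48 h reached into the range of SKMEL28 at 1 h. The remaining neighbours overlapped up to SW1736 at 0 h, at 10.18. Between lines the difference was 0.14 ± 0.19 at 0 h and 0.16 ± 0.19 at 48 h, neither called. Without replicate 3 of SW1736 at 48 h the difference at 48 h was 0.45 (adjusted p = 0.0285).

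MAP2K2 encodes MEK2, the second MEK kinase. SW1736 read 10.06, 10.50 and 9.41 at 0 h, 9.31, 9.77 and 9.85 at 1 h, 9.53, 10.29 and 9.48 at 6 h, and 9.54, 10.17 and 9.03 at 48 h. SKMEL28 read 10.18, 9.90 and 10.13 at 0 h, 10.06, 9.97 and 10.36 at 1 h, 10.10, 10.26 and 10.35 at 6 h, and 10.45, 10.19 and 10.06 at 48 h. The SW1736 replicates were spread widely (SD 0.55 at 0 h and 0.57 at 48 h), and the 8 groups overlapped with their neighbours throughout the order of levels.

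The MAP2K2 difference at 48 h against 0 h was -0.41 ± 0.27 in SW1736 (95% interval -0.98 to 0.15) and 0.16 ± 0.27 in SKMEL28 (95% interval -0.40 to 0.73), neither called. Between the lines the level at 48 h was 9.58 ± 0.57 in SW1736 and 10.23 ± 0.20 in SKMEL28. That difference, -0.66 ± 0.27, had an adjusted p of 0.0548, where 22.4% of all probes were called lower in SW1736. It was -0.95 with an adjusted p of 0.00756 without replicate 2 of SW1736 at 48 h. Without replicate 3 of SW1736 at 48 h it was -0.38 with an adjusted p of 0.312. It was called when replicate 2 or replicate 3 of SW1736 at 0 h, or replicate 2 at 6 h, was left out.

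MAPK3 encodes ERK1, the last kinase of the relay. The platform annotation assigns its 2 probes to different RefSeq transcript records. They are called the first probe (ILMN_1667260) and the second probe (ILMN_2402341). In SW1736 the first probe read 9.39, 9.28 and 9.29 at 0 h, 9.14, 8.71 and 9.11 at 1 h, 9.52, 9.76 and 9.91 at 6 h, and 10.32, 9.94 and 10.26 at 48 h. For SKMEL28 the readings were 9.54, 9.50 and 9.32 at 0 h, 9.64, 9.43 and 9.51 at 1 h, 9.82, 9.66 and 9.81 at 6 h, and 10.11, 10.07 and 10.38 at 48 h. Arrays at 6 h lay above those at 0 h, and arrays at 48 h above those at 6 h, without overlap in either line. The differences at 6 h against 0 h were not called, and the share of all probes that separate in this way is not given.

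The first MAPK3 probe averaged 10.17 ± 0.20 at 48 h in SW1736, against 9.32 ± 0.06 at 0 h (SD, n = 3 each). The difference of 0.85 ± 0.16 (adjusted p = 0.000203) is 1.81-fold, with a 95% interval of 1.44 to 2.26. At 48 h in SKMEL28 it averaged 10.19 ± 0.17, against 9.45 ± 0.12 at 0 h, a difference of 0.74 ± 0.16 (adjusted p = 0.000738), or 1.66-fold with a 95% interval of 1.33 to 2.08. Of all probes, 13.2% were called higher in SW1736 and 15.3% in SKMEL28 at 48 h, and 5.78% were called higher in both. The SW1736 call held under all 39 alternative settings. The SKMEL28 call held under 38 of 39, and under median scaling in place of quantile normalization its difference was 0.56 with an adjusted p of 0.0513. The change differed between the lines by 0.12 ± 0.22 (95% interval -0.34 to 0.58), which was not called.

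The second MAPK3 probe read 8.73, 8.68 and 8.71 at 0 h, 8.24, 8.40 and 8.82 at 1 h, 9.35, 8.92 and 8.79 at 6 h, and 9.69, 9.09 and 9.22 at 48 h in SW1736. In SKMEL28 it read 9.37, 9.16 and 9.11 at 0 h, 9.25, 9.32 and 9.18 at 1 h, 9.49, 9.48 and 9.59 at 6 h, and 9.95, 9.70 and 9.75 at 48 h. All arrays at 48 h lay above all arrays at 0 h in both lines. The rise at 48 h was 0.63 ± 0.18 in SW1736 (adjusted p = 0.00971) and 0.59 ± 0.18 in SKMEL28 (adjusted p = 0.0133). Under median scaling neither was called, with an adjusted p of 0.143 in SW1736 and 0.141 in SKMEL28. The SW1736 call was also lost without replicate 1 of SW1736 at 48 h, and the SKMEL28 call without replicate 3 of SKMEL28 at 0 h or replicate 1 at 48 h. Fitted on its own, SW1736 gave this probe an adjusted p of 0.0648.

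**Figure D2:**
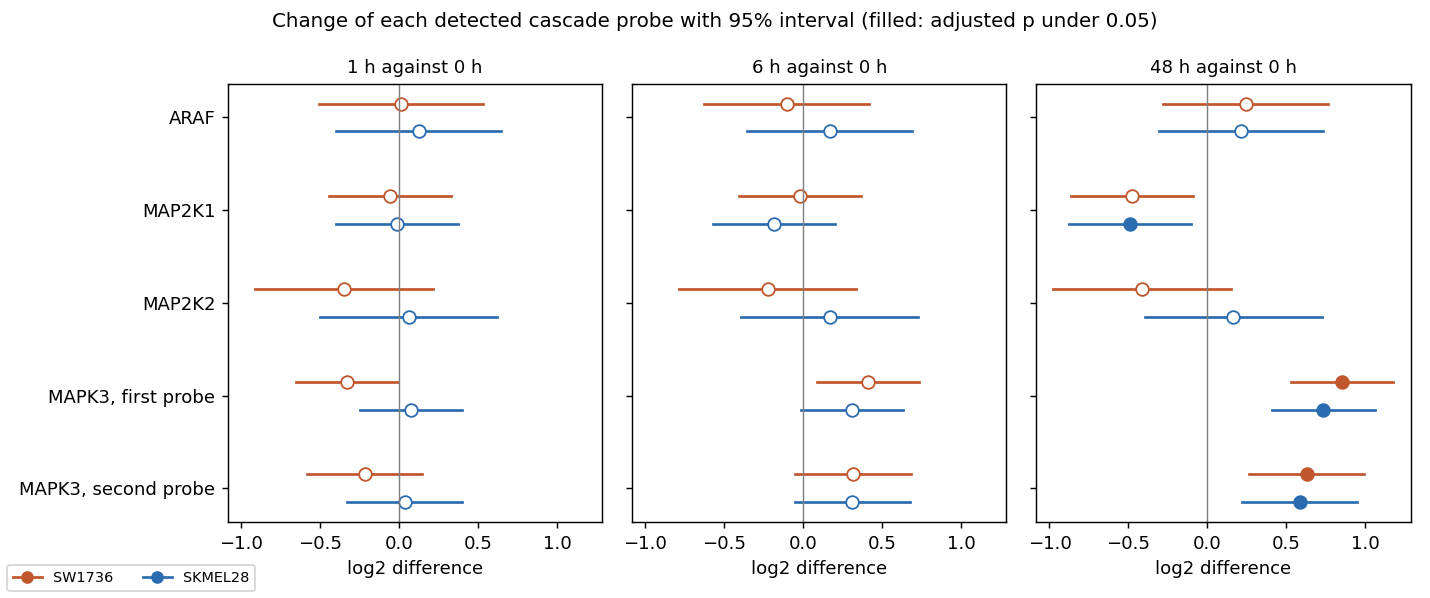
Log2 difference from untreated cells (horizontal axis) of the 5 detected cascade probes at 1, 6 and 48 h in SW1736 (upper of each pair) and SKMEL28, as points with 95% intervals from the limma model. Filled points are called, which at 48 h are both MAPK3 probes in both lines (0.59 to 0.85) and MAP2K1 in SKMEL28 (-0.49), and there are none at 1 h or 6 h.

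The 2 MAPK3 probes followed each other across arrays, with Pearson's r of 0.79 over the 12 SW1736 arrays and 0.89 over the 12 SKMEL28 arrays, which share the groups' changes. They differed in what they showed between lines. By the first probe, SW1736 and SKMEL28 differed by -0.13 ± 0.16 at 0 h and by -0.01 ± 0.16 at 48 h, neither called. By the second, SW1736 was lower than SKMEL28 by a difference of -0.50 ± 0.18 at 0 h (adjusted p = 0.0251) and of -0.46 ± 0.18 at 48 h (adjusted p = 0.0376). Of all probes, 20.8% were called lower in SW1736 at 0 h and 22.4% at 48 h. The 0 h call was lost without replicate 2 of SW1736 or replicate 1 of SKMEL28 at 0 h. The 48 h call was lost without replicate 2 or 3 of SW1736, or replicate 1 or 3 of SKMEL28, at 48 h, and with replicate 3 left out of every SW1736 group (adjusted p = 0.0746).

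The earlier times showed smaller MAPK3 differences. At 1 h the first probe differed by -0.33 ± 0.16 in SW1736 (adjusted p = 0.635) and by 0.08 ± 0.16 in SKMEL28 (adjusted p = 0.9999). At 6 h it differed by 0.41 ± 0.16 in SW1736 (adjusted p = 0.145) and by 0.31 ± 0.16 in SKMEL28 (adjusted p = 0.393). From 6 h onwards the 48 h level was higher by 0.44 ± 0.16 in SW1736 (adjusted p = 0.0466) and by 0.43 ± 0.16 in SKMEL28 (adjusted p = 0.0488), in comparisons that called 10.7% of all probes higher in SW1736 and 13.2% in SKMEL28. These late rises lay near the threshold. The SW1736 call was lost without any 1 of 15 of the 24 arrays (replicates 1 and 2 of SW1736 at 6 h, replicates 1 and 3 at 48 h, and each SKMEL28 array but replicate 3 at 48 h), and its adjusted p reached 0.261 under median scaling. The SKMEL28 call was lost without any 1 of 16 (the 3 SW1736 arrays at 0 h, replicate 2 at 6 h, and each of the 12 SKMEL28 arrays), with adjusted p-values of up to 0.214. The second probe was not called at 48 h against 6 h in either line.

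Ordered by mean level of the first probe, SW1736 at 1 h was lowest, at 8.99, and stood apart from SW1736 at 0 h. The untreated and 1 h groups of SKMEL28 and the 6 h groups of both lines followed as overlapping neighbours. A gap of 0.41 without overlap then separated SKMEL28 at 6 h from the 2 groups at 48 h, which overlapped each other.

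MAPK3 and MAP2K1, the genes called with time, have the promoter windows shown next, each 5′ to 3′ on the gene's strand from 250 bases before to 50 after the start of the RefSeq gene (GRCh38.p14). MAPK3 lies on the - strand (chr16:30123171-30123470) and MAP2K1 on the + strand (chr15:66386662-66386961, the first of its 2 windows in the table). Capitals mark matches to GGGCGG, the GC box bound by Sp1, and to CACGTG, the E-box, on either strand.

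MAPK3: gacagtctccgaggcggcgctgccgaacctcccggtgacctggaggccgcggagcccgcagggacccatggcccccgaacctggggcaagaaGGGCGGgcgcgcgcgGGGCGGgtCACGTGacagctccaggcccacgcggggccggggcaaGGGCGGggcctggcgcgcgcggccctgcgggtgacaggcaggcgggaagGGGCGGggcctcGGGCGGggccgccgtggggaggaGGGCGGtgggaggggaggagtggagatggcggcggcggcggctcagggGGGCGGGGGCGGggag

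MAP2K1: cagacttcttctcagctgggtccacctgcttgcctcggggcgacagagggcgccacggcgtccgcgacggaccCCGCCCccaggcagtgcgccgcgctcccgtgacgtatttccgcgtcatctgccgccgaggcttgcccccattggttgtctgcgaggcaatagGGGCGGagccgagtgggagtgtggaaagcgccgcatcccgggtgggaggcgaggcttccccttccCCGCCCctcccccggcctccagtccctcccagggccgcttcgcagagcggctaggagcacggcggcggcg

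The MAPK3 window held 8 GC boxes, the MAP2K1 window 3 and the ARAF window 0. Among all 35116 windows of this length, 45% held at least 1, 15.8% at least 3 and 0.812% at least 8. The MAPK3 window also held 1 E-box, beginning at position -135 from the start of the gene, and an E-box was found in 7.26% of all windows. None of the 3 windows held the ETS motif CCGGAAGT, the CRE TGACGTCA or the AP-1 motif TGANTCA, which 4.14%, 1.85% and 7.71% of all windows held. The motifs were chosen with these sequences in view, and a match describes letters, not a bound site.

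Genes that work around the relay moved in both directions. The lists exclude the 7 cascade genes, hold 102 genes, of which 84 were measured, and read each gene from its brightest probe. At 1 h 0 were called higher and 6 lower in SW1736, and likewise 0 and 6 in SKMEL28, where 0.175% of all genes were called in SW1736 and 0.139% in SKMEL28. At 6 h the counts were 0 and 13 in SW1736 and 2 and 14 in SKMEL28, with 7.16% of all genes called in SW1736 and 5.94% in SKMEL28. At 48 h, 5 were higher and 23 lower in SW1736, 33.3% of those measured, and 12 were higher and 31 lower in SKMEL28, 51.2% of those measured. Of all genes, 31.6% were called in SW1736 and 36.4% in SKMEL28 at that time. ERK feedback genes made up all 6 lower calls at 1 h in each line. At 6 h they made up all 13 in SW1736 and 13 of the 14 in SKMEL28.

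The ERK feedback genes, which ERK activity is known to induce, accounted at 48 h for 5 of the 23 lower calls in SW1736 and 13 of the 31 in SKMEL28. In SW1736, 2 of 15 measured were higher and 5 lower at 48 h, with a median difference of -0.38, and in SKMEL28 0 were higher and 13 lower, with a median of -1.38. The median over all genes was 0.02 in SW1736 and 0.03 in SKMEL28. DUSP6, the ERK phosphatase gene, differed from 0 h by -1.12 ± 0.21 in SW1736 (adjusted p = 0.000304) and by -4.31 ± 0.21 in SKMEL28 (adjusted p = 1.44e-13) at 48 h. SPRY4, a Sprouty gene, differed by -0.22 in SW1736, which was not called, and fell by 3.33 in SKMEL28. The difference between lines in the 48 h change was called for 10 of the 15 feedback genes, and it was called for 0 of 5 cascade probes. Over the 20 tests of such a difference in cascade probes (5 probes, 4 changes), the lowest adjusted p was 0.380 and 0 had an unadjusted p under 0.05, while of all probes 0.015% were called for 1 h against 0 h, 2.47% for 6 h, 14.1% for 48 h and 11.9% for 48 h against 6 h.

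**Figure D3:**
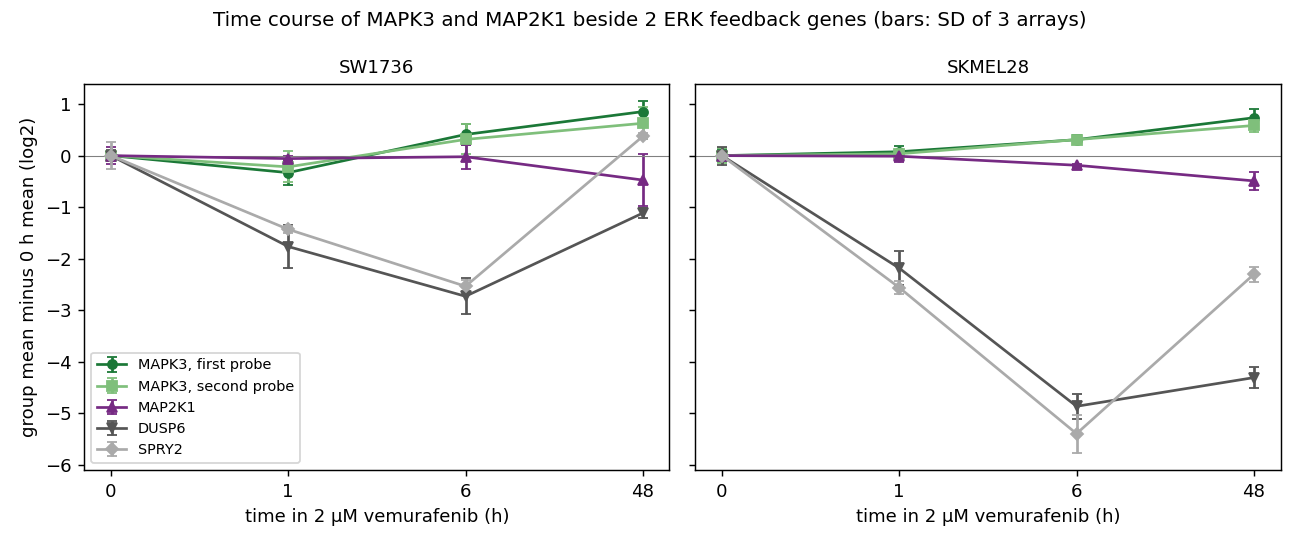
Group mean minus the 0 h mean (log2, vertical axis) by hours in 2 µM vemurafenib for the 2 MAPK3 probes, MAP2K1 and the ERK feedback genes DUSP6 and SPRY2, in SW1736 (left) and SKMEL28. Bars are the SD of 3 arrays, and DUSP6 was detected on 0 of 3 SKMEL28 arrays at 6 h. DUSP6 and SPRY2 fell at 1 h and 6 h in both lines while MAPK3 and MAP2K1 stayed within 0.41 of 0 h, and at 48 h SPRY2 differed from 0 h by 0.37 in SW1736, which was not called, and by -2.30 in SKMEL28.

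Among the homologues of the cascade genes, HRAS, a RAS gene, fell by 1.39 in SW1736 at 48 h and fell by 0.85 in SKMEL28. RRAS2, an R-RAS gene, fell by 0.60 in SW1736 and fell by 0.68 in SKMEL28. RRAS, its relative, differed by 0.04 in SW1736, which was not called, and rose by 0.83 in SKMEL28. Of 5 measured homologues, 0 were higher and 2 lower in SW1736, and 1 was higher and 2 lower in SKMEL28. Of all genes, 31.6% were called in SW1736 and 36.4% in SKMEL28, and the list was not tested against these shares.

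Genes on the list of RAS activators and adaptors, which also holds RAPGEF1 and RAPGEF2, moved in opposite directions in part. At 48 h RAPGEF1, SHC1 and GAB2 were called in opposite directions in the lines, while the RAS exchange factor genes SOS1 and SOS2 were called in neither. In SW1736, SOS1 was detected on 0 of 3 arrays at 0 h and at 48 h, and SOS2 on 1 of 3 at 0 h. Of 10 measured, 1 was higher and 3 lower in SW1736 at 48 h (median -0.28), and 5 were higher and 2 lower in SKMEL28 (median 0.55). The share of all genes called was 31.6% in SW1736 and 36.4% in SKMEL28. The change in SW1736 minus that in SKMEL28 was called above 0 for 1 of the 10 and below 0 for 4. RAPGEF1, an exchange factor of the RAS-like protein RAP1, fell by 0.63 in SW1736 and rose by 0.89 in SKMEL28, and the difference between lines was called (adjusted p = 5.75e-05). GRB2, the adaptor between receptors and SOS, differed by -0.56 in SW1736, which was not called, and fell by 0.86 in SKMEL28. GAB1, a docking protein, differed by 0.06 in SW1736, which was not called, and rose by 0.76 in SKMEL28. It was detected on 2 of 3 SW1736 arrays at 0 h. The difference between lines was not called for GRB2 (adjusted p = 0.651) or GAB1 (adjusted p = 0.251). RASGRP3, a RAS exchange factor gene, is named here after its values were seen. It was detected on 3 of 3 SKMEL28 arrays at 48 h and in no other group. Set against the dimmest detected signal, it was at least 3.63-fold higher there than at 0 h. It passed the detection filter only through that group. Its place among the 5 higher calls, and among the 4 line differences called below 0, is therefore not independent of the filter. Of 4 measured RAS inactivators, 0 were called in either line.

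At 48 h, 1 of 21 measured scaffolds, chaperones and modulators was higher and 7 lower in SW1736. In SKMEL28, 2 were higher and 7 lower. The shares of all genes called at that time were 31.6% in SW1736 and 36.4% in SKMEL28. This list was not tested against them. PPP1CB, a catalytic subunit of the phosphatase that acts with SHOC2 on RAF, rose by 1.30 in SW1736 and by 0.60 in SKMEL28. PEA15, which holds ERK in the cytoplasm, fell by 1.27 in SW1736 and fell by 0.49 in SKMEL28. PEBP1, known as the RAF kinase inhibitor protein, differed by 0.12 in SW1736, which was not called, and rose by 0.99 in SKMEL28. SFN, a 14-3-3 gene, fell by 1.81 in SW1736 and differed by 0.19 in SKMEL28, which was not called.

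Of 8 genes that process RAS for the membrane, 1 was higher and 1 lower in SW1736, and 2 were higher and 1 lower in SKMEL28. PGGT1B, a prenyltransferase subunit gene, rose by 1.05 in SW1736, and FNTB, the beta subunit gene of farnesyltransferase, fell by 0.83 in SKMEL28. Of 10 ERK effector kinases and ETS substrates, 0 were higher and 3 lower in SW1736, and 1 was higher and 3 lower in SKMEL28. RPS6KA5, the gene of the nuclear kinase MSK1, differed by 0.20 in SW1736, which was not called, and fell by 1.17 in SKMEL28. Of 11 genes of parallel MAP kinase cascades, 0 were higher and 2 lower in SW1736, and 1 was higher and 3 lower in SKMEL28. MAP2K3, which activates p38, fell by 0.83 in SW1736 and fell by 1.51 in SKMEL28. The lists in this paragraph were not tested against the shares of all genes called at 48 h, 31.6% in SW1736 and 36.4% in SKMEL28.

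**Figure D4:**
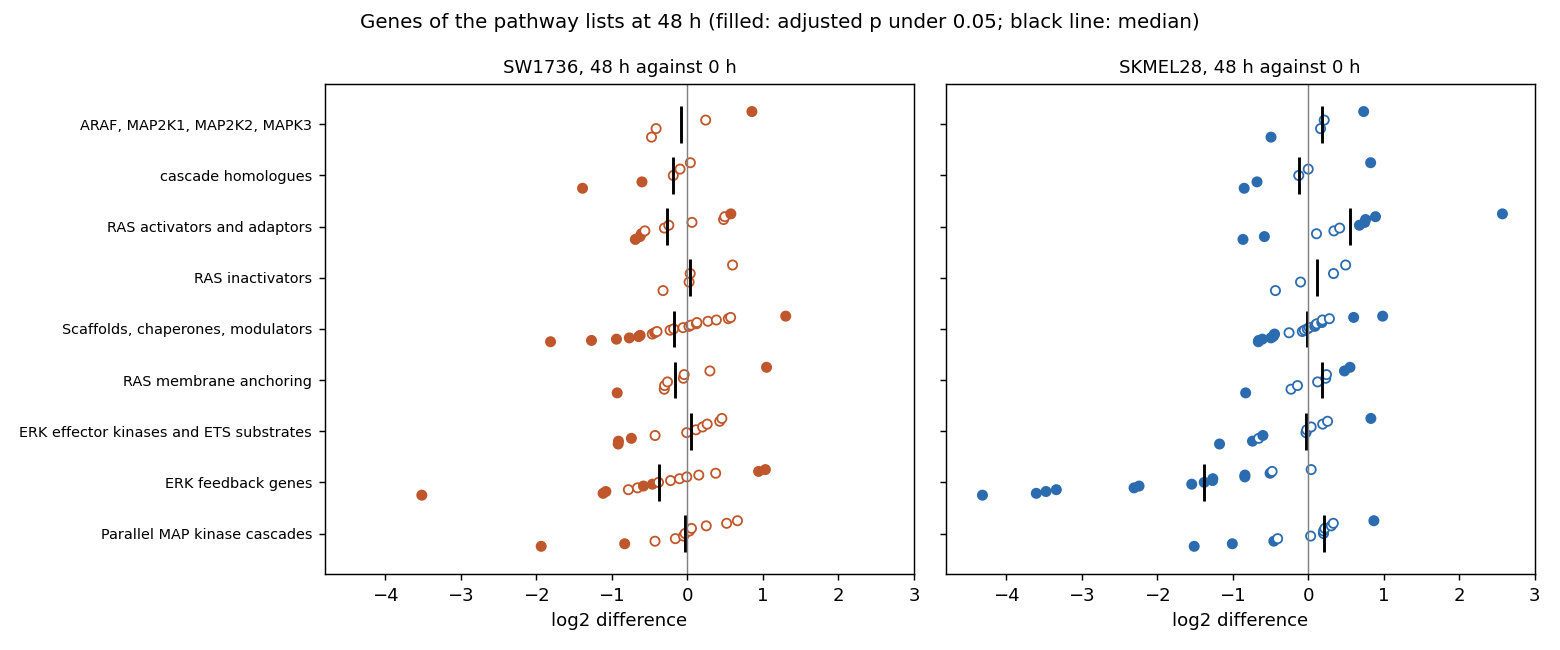
Log2 difference at 48 h against 0 h (horizontal axis) of each measured gene of the pathway lists in SW1736 (left) and SKMEL28 (right), with the 4 detected cascade genes in the top row, read from their brightest probe. Filled circles are called and black lines are list medians. The cascade genes lie between -0.49 and 0.85, while the ERK feedback genes in SKMEL28 have a median of -1.38.

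The genes whose pattern over the 8 group means, centred within each line, was most like that of MAPK3 were KCNMB2 (Pearson's r = 0.996), ACADM (r = 0.995) and ZNF439 (r = 0.993). They were not unusual in this, since 481 of 13695 genes had an r over 0.9. For MAP2K1 the most similar genes were MAP7D3 (r = 0.993), NDUFV3 (r = 0.993) and WDR5CP (r = 0.991), with 832 genes over 0.9. These values describe 8 means that share the arrays and the normalization.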

How the data were processed

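The authors deposited a table of raw signal intensity per probe and array, with a detection p-value for each, per the file headers, and a second table, deposited with no scale stated, whose values look like quantile-normalized log2. Partek is named in the submitters' processing notes without a version. From the raw intensities, background was corrected with limma's normexp model (detection p-values, offset 16), arrays were quantile normalized and log2 taken. Probes detected at p under 0.05 on at least 3 of 24 arrays were kept (26673 of 47231). Probe symbols came from the platform annotation (30113 probes with 1 symbol, 8 with several, 17110 with none). One limma model had a mean for each of 8 groups (16 residual and 6.78 prior degrees of freedom) and 14 comparisons: each time against 0 h and 48 h against 6 h per line, the 4 changes of SW1736 minus those of SKMEL28, and the lines at 0 h and 48 h. An adjusted p under 0.05 was the threshold.

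All 7 cascade genes are named. From each pathway list up to 4 genes were taken by largest change among those called at 48 h and detected on 2 of 3 arrays of both groups, and the text uses fewer. The cascade genes and lists were chosen with earlier results of these data known. The labels tie replicate numbers to no shared culture or day, and the numbers were not taken to pair samples: same-numbered arrays of SKMEL28 correlated from -0.01 to 0.06 in their deviations, and only the third SW1736 arrays passed 0.1 in part (0.08 to 0.16). Pairing is not excluded by this, since 20 of 24 arrays correlated best with their own number. No 2 arrays were identical. The code was tested on data with known answers. Arrays carry no count of molecules, so their number limits the precision. Promoter windows are RefSeq's, GRCh38.p14. Tools were limma 3.58.1 and statmod 1.5.0 in R 4.3.3, and matplotlib 3.10.9 in Python 3.11.15.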

Additional observations from a re-analysis of the deposited data

How the results depend on the processing

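The alternatives were 2 other background settings, median scaling, the authors' values, other filters, the brightest probe or the mean of probes per gene, each line fitted alone, array weights, a trended robust prior, the replicate block, an adjusted p under 0.01, the third SW1736 arrays left out, and each array left out. No call turned its direction. The number of the 4 cascade genes called, each read from its brightest probe (so that the calls of the second MAPK3 probe are not counted), moved as follows, and the cause was not tested. For SW1736 at 48 h against 0 h it was 1, and 2 (MAP2K1 added, adjusted p from 0.0203 to 0.0474) with no background correction, an offset of 50, median scaling, the authors' values, the stricter filter, the brightest probe, the mean of probes and the robust prior. For SW1736 at 48 h against 6 h it was 1, and 2 with no background correction, the authors' values and the robust prior, but 0 with median scaling, each line alone, array weights, an adjusted p under 0.01 and the third SW1736 arrays left out. Between the lines at 48 h it was 1, and 2 under the same 8 settings (MAP2K2 added) and with the third SW1736 arrays left out (MAP2K1 added), and at 0 h it was 1, and 2 with the mean of probes. For SKMEL28 at 48 h against 0 h it was 2, and 1 with median scaling, no filter, the fixed replicate block (MAP2K1, adjusted p 0.0623) and an adjusted p under 0.01, and at 48 h against 6 h it was 1, and 0 with median scaling and an adjusted p under 0.01. Leaving out single arrays gave 1 to 2 in SW1736 and in SKMEL28 at 48 h against 0 h and between the lines at 48 h, and 0 to 1 in both lines at 48 h against 6 h. The fixed replicate block changed no other call of a cascade probe, but it gives no comparison of the lines at 0 h or 48 h. The random block changed none. Best correlations fell on the own number for 20 of 24 arrays, a hint from the data and not the design. Own-number arrays were a minority of those that each array was compared with. Over all probes, the count at 1 h lay between 5 (each line alone) and 49 around 37 in SW1736 and between 19 and 85 (array weights) around 30 in SKMEL28, and at 6 h between 501 (each line alone) and 1964 around 1496 and between 723 and 2336 (array weights) around 1199. An adjusted p under 0.01 called 3467 in place of 5513 in SW1736 at 48 h against 6 h, and for the difference between lines 372 in place of 659 (6 h), 2240 in place of 3772 (48 h) and 1679 in place of 3175 (48 h against 6 h); at 1 h that count lay between 2 and 18 (no background correction) around 4. Median scaling moved the median of all probes at 6 h in SKMEL28 to -0.105, and its calls were 290 higher and 873 lower in SW1736 and 203 and 875 in SKMEL28 at 6 h, and 2380 and 3682 in SW1736 and 2793 and 4188 in SKMEL28 at 48 h, where quantile normalization gave 659 and 837, 479 and 720, 3532 and 3420, and 4074 and 3951. The only KSR1 probe was detected on no array, and whether the transcript was absent was not tested.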
